A study of Rattus norvegicus with 12 samples.

Results

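Sarcomere scaffold proteins hold the contractile filaments of heart muscle in register. Their genes were read in RNA-seq libraries of the left (LV) and right ventricular (RV) free walls of neonatal rats. Members were the rows whose gene name was in a set of 9 names: Ttn, Nebl, Mybpc3, Myom1, Myom2, Actn2, Ldb3, Cmya5 and Alpk3. Of these names, 7 had a row in the table of 32545 genes, and Ttn and Nebl were not analysed here. Sprague–Dawley rats had received either a needle puncture joining the abdominal aorta to the inferior vena cava, which sends extra blood back to the heart (volume overload, VO), or a sham operation at postnatal day 1, and free-wall myocardium was taken at postnatal day 7. There were 3 libraries in each of 4 groups, which were the LV after sham (sham LV) or VO surgery (VO LV) and likewise the RV (sham RV and VO RV). Neither the sex of the pups nor whether an LV and an RV library came from the same heart was given in the labels. Where nothing states that libraries came from separate animals, p values measure only the spread between these libraries.

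In each sarcomere, actin thin filaments are anchored at the Z-disc and myosin thick filaments are cross-linked in the middle, at the M-band. Actn2 encodes alpha-actinin 2, which cross-links actin at the Z-disc, and Ldb3 encodes a PDZ and LIM domain protein (ZASP or cypher) that binds alpha-actinin there. Myom1 and Myom2 encode myomesins, which tie thick filaments together at the M-band. Mybpc3 encodes cardiac myosin-binding protein C, which sits along the thick filament and restrains myosin heads. Cmya5 encodes myospryn, a large anchoring protein of striated muscle, and Alpk3 encodes an alpha-kinase family protein needed for normal heart muscle. Truncating variants of MYBPC3 are a well-known cause of hypertrophic cardiomyopathy in people.

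The DNA just upstream of 3 of these genes is printed, since Alpk3 and Cmya5 differed most of the 7 and Mybpc3 least between the sham ventricles. RefSeq held a promoter window for 6 of the 7 genes (Myom2 is named only), and the bases outside each gene's own span are printed 5′ to 3′ in the direction of transcription. Positions are on GRCr8: Alpk3 chr1:144423496-144423689 (plus strand), Cmya5 chr2:26113274-26113523 (minus strand) and Mybpc3 chr3:97550811-97550973 (plus strand). Capitals mark a match to the strict consensus of MEF2, a muscle transcription factor.
Alpk3: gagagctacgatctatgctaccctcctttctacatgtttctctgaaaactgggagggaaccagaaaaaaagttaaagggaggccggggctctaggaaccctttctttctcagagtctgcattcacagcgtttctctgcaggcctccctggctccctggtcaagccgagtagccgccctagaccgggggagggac
Cmya5: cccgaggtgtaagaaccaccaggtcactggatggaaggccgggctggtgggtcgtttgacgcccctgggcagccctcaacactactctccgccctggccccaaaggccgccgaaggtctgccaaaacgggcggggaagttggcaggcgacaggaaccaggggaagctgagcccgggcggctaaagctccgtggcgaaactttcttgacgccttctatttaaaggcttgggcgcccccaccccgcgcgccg
Mybpc3: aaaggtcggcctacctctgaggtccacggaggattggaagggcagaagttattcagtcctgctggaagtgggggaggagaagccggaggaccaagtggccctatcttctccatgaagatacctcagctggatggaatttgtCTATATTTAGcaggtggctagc
The 250 bases before the start used for each window were searched on both strands. Of these, 163 bases in Mybpc3, 194 in Alpk3, 250 in Actn2 and Cmya5 and 0 in Myom1 and Ldb3 lay outside the gene's own span. The strict MEF2 consensus (CTA, then 4 letters that are each A or T, then TAG) matched once, in Mybpc3, with its first base 109 bases before the start, and 0.523% of 33469 rat promoter windows of that length held such a match. A looser form, searched after these matches were seen, also takes T as the first and A as the last letter. It was held by 2.96% of windows and matched at that same place and once in Alpk3, with its first base 31 bases before the start and so outside the printed bases. The CArG box, which serum response factor binds, matched once, in Ldb3, against 1.5% of windows. Its first base lay 52 bases before the start, inside the span of Ldb3. The letters CATTCC, which TEAD factors bind and 12.1% of windows hold, matched in none of the 6 genes. The same was true of AGATAA, bound by GATA factors and present in 10.3% of windows. The E-box letters CANNTG, present in 65.5% of windows, occurred 3 times in Mybpc3, 2 times each in Myom1 and Actn2, 1 time in Alpk3 and not in Ldb3 or Cmya5. These are matches of letters in a short window and no measure of binding.

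Values were deposited as FPKM, fragments scaled to gene length and library depth, so levels can be compared between genes per length. Reads recovered from them came to between 14121713 and 16871371 per library, and the 7 genes together took 0.660% to 0.928% of them. The fewest reads on any member in a library were 1341, on Cmya5. All 9 cardiomyocyte markers were present in the table, at a summed 18865 to 29642 FPKM. VO RV replicate 2 stood apart, with the lowest cardiomyocyte sum and the highest atrial marker sum (4562 FPKM over 6 genes, against 254 and 315 in the other VO RV libraries), and with 4935 FPKM of fibroblast markers against 2533 and 3045. Sham RV replicate 1 also had more atrial marker RNA (1068 FPKM) than the other sham RV libraries (213 and 306). The LV libraries held 708 to 1159 FPKM of these markers after sham surgery and 894 to 1737 FPKM after VO. Sham LV replicate 2 had the highest red blood cell marker sum (4857 FPKM, against 2164 and 3376 in the other sham LV libraries). Its skeletal muscle marker sum was also the highest (39.2 FPKM, against 15.8 and 14.5). In these tissue samples, fewer cells of a type and less RNA per cell cannot be told apart. By Pearson's r over all tested genes, only 4 of the 12 libraries had their nearest neighbour in their own group, and VO RV replicate 3 was nearest to sham LV replicate 1 (r = 0.979).

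Per length, Mybpc3 was the most abundant of the 7 genes, with a mean of 705 FPKM over the 12 libraries, followed by Actn2 (549), Myom2 (254), Ldb3 (176), Myom1 (121), Alpk3 (25.8) and Cmya5 (14.4). This order held in 11 of 12 libraries, and in VO RV replicate 3 Ldb3 stood above Myom2. Mybpc3 ranked 107 and Cmya5 4617 among all genes by mean FPKM. The most variable member was Cmya5, whose highest library was 3.23 times its lowest, and Myom1 was the least variable, at 1.56 times.

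**Figure D1:**
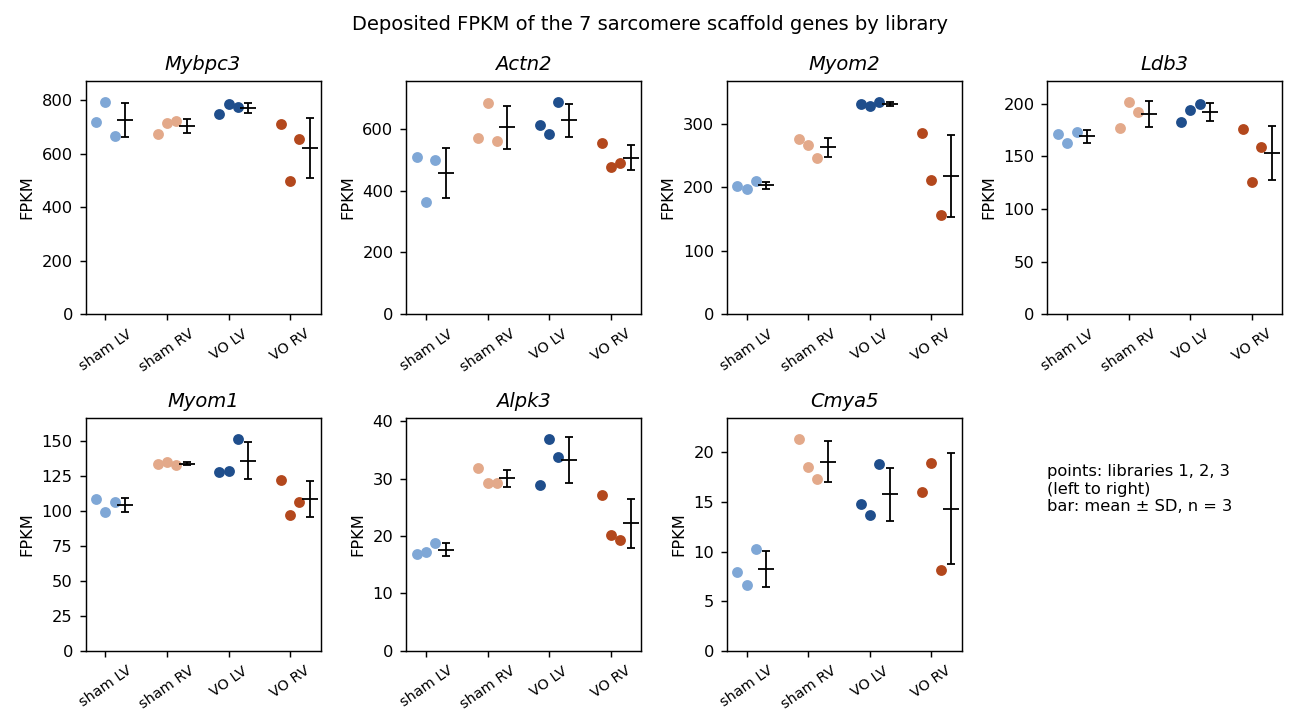
Deposited FPKM (y axis, from 0) of each of the 7 genes in the 12 libraries, grouped by surgery and ventricle; points are libraries and bars the mean ± SD (n = 3). Alpk3 and Cmya5 sit lowest in the 3 sham LV libraries, apart from 1 VO RV library of Cmya5 at 8.11, whereas Mybpc3 lies between 655 and 792 apart from VO RV replicate 2 at 498.

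Among the M-band genes, Myom1 (ENSRNOG00000057701, listed at chromosome 9, 119353840 to 119468715, 5067 bases of exons) measured 108, 98.8 and 106 FPKM in sham LV replicates 1 to 3 and 134, 135 and 133 in sham RV. In VO LV it measured 128, 129 and 151, and in VO RV 122, 96.9 and 106. The sham LV values lay below all sham RV and all VO LV values, and the VO RV values lay below all sham RV values.

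Myom2 (ENSRNOG00000011754, chromosome 16, 79587640 to 79671719, 4513 bases) measured 202, 198 and 210 FPKM in sham LV and 276, 266 and 246 in sham RV. It measured 331, 329 and 334 in VO LV, above every other library, and 285, 212 and 156 in VO RV. The VO RV libraries thus spanned the range from below sham LV to above sham RV.

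At the Z-disc, Actn2 (ENSRNOG00000017833, chromosome 17, 66304501 to 66397653, 2978 bases) measured 509, 363 and 500 FPKM in sham LV, 569, 683 and 561 in sham RV, 613, 582 and 686 in VO LV and 555, 476 and 490 in VO RV. Its sham LV values lay below all sham RV and VO LV values, with replicate 2 far below the other two.

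Ldb3 (ENSRNOG00000059166, chromosome 16, 10878334 to 10941501, 5955 bases) measured 171, 162 and 173 FPKM in sham LV and 177, 201 and 192 in sham RV. In VO LV it measured 183, 194 and 199, and in VO RV 176, 126 and 159. The groups of Ldb3 did not overlap in either sham LV comparison, but the gaps between them were small.

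Mybpc3 (ENSRNOG00000012307, chromosome 3, 79940561 to 79958730, 4165 bases) measured 720, 792 and 665 FPKM in sham LV, 673, 715 and 723 in sham RV, 749, 787 and 773 in VO LV and 711, 498 and 655 in VO RV. Its sham LV libraries overlapped both sham RV and VO LV, and its lowest value came from the VO RV library with the lowest cardiomyocyte marker sum.

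Alpk3 (ENSRNOG00000011659, chromosome 1, 142883040 to 142931940, 6320 bases) measured 16.9, 17.1 and 18.9 FPKM in sham LV and 31.8, 29.3 and 29.2 in sham RV. In VO LV it measured 28.9, 36.9 and 33.8, and in VO RV 27.1, 20.2 and 19.4. All 9 other libraries lay above the 3 sham LV libraries, and VO RV lay between sham LV and sham RV without overlap.

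Cmya5 (ENSRNOG00000023803, chromosome 2, 22646712 to 22744407, 12492 bases) measured 7.95, 6.62 and 10.2 FPKM in sham LV, 21.4, 18.5 and 17.3 in sham RV and 14.8, 13.7 and 18.8 in VO LV. In VO RV it measured 16.0, 18.9 and 8.11, so that replicate 3 fell within the sham LV range, replicate 1 just below sham RV and replicate 2 within it. The genome build of these positions is not given in the sources used here.

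The first comparison asked how the LV and RV differ without overload. Alpk3 and Cmya5 were lower in the sham-operated LV. Alpk3 averaged 17.6 ± 1.07 FPKM in sham LV and 30.1 ± 1.48 in sham RV (SD, n = 3), a log2 fold change of -0.75 (SE 0.13, limma adjusted p = 0.0319). Cmya5 averaged 8.27 ± 1.82 and 19.1 ± 2.08 FPKM, a log2 fold change of -1.17 (SE 0.26, limma adjusted p = 0.0395). These were the only members to pass as DEGs (adjusted p under 0.05 and fold change over 1.3), so 2 of 7 were lower and 0 higher, beside 3.85% of the 13910 tested genes called in either direction and 2.35% called lower. Without adjustment (p under 0.05, same fold) 3 of 7 members were lower, Actn2 in addition, beside 17.8% of tested genes in either direction. Myom1 (-0.36, limma adjusted p = 0.0634), Actn2 (-0.41, 0.105) and Myom2 (-0.37, 0.188) were lower on the log2 scale without passing the test. Ldb3 differed by -0.17 and Mybpc3 by 0.04, with a 95% interval for Mybpc3 from -0.24 to 0.32. The libraries of 6 of 7 members did not overlap, where 32.2% of all tested genes did not, and each of these 6 gave an exact two-sided permutation p of 0.1, the smallest that 3 libraries against 3 allow. In the same comparison 3 of 6 endothelial markers were called higher (median log2 fold change 0.40) and 2 of 9 cardiomyocyte markers lower (median -0.09), while 7 of 7 smooth muscle markers (median 0.41), 6 of 7 macrophage markers (median 0.20), 4 of 4 red blood cell markers (median 0.68) and 0 of 8 fibroblast markers (median -0.20) had positive values, with none called by limma (0, 0, 3 and 0 passed without adjustment). The part of these markers in the member differences was not tested.

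Both sham calls were lost when certain single libraries were left out. Without sham LV replicate 1 or 2, sham RV replicate 1 or 2, or VO LV replicate 2, neither gene passed (limma adjusted p of Alpk3 0.0710, 0.111, 0.124, 0.101 and 0.0504, and of Cmya5 0.0864, 0.145, 0.150, 0.113 and 0.0578), and Cmya5 also did not pass without sham RV replicate 3 (0.0586) or VO LV replicate 1 (0.0615), although where the call was lost the log2 fold change lay between -1.24 and -1.03 for Cmya5 and between -0.77 and -0.72 for Alpk3. DEGs over all genes fell as well, from 536 to 3, 1, 0, 4 and 5 without the 5 libraries in that order, and to 185 and 173 without sham RV replicate 3 or VO LV replicate 1. Without both RV libraries with high atrial marker sums, the log2 fold changes were -0.72 and -1.09, and 0 members and 9 of all genes were called.

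The second comparison asked how the LV responded to VO. Alpk3 was higher in VO LV than in sham LV, at 33.2 ± 4.04 against 17.6 ± 1.07 FPKM (SD, n = 3), or 1.85-fold (log2 0.89, SE 0.13, limma adjusted p = 0.0387). It was 1 of 7 members called higher, beside 0.0935% of tested genes called in either direction and 0.0719% called higher. That background is unstable: 13 genes were called in all, against 197 by voom on the recovered reads, and Alpk3 was the only member called there as well. All 7 members had positive log2 fold changes, and 4 passed without adjustment (p under 0.05, same fold), beside 15.7% of tested genes. Cmya5 (0.90, limma adjusted p = 0.0887), Myom2 (0.71, 0.0612), Actn2 (0.47, 0.0971) and Myom1 (0.38, 0.0725) were above sham LV without passing the test, and their libraries did not overlap with those of sham LV. Myom2 averaged 331 ± 2.82 FPKM in VO LV against 203 ± 5.82 in sham LV. Ldb3 (0.19) and Mybpc3 (0.09) differed least, and only Mybpc3 overlapped between the groups. No overlap in 6 of 7 members stands beside 32.4% of all tested genes. The same sham LV libraries entered the sham comparison and this one, so the values of a member in both are not independent. Of the 9 cardiomyocyte markers, 6 had positive values (median 0.38) and 0 were called by limma (3 higher and 1 lower without adjustment), and 5 of 6 atrial markers were positive (median 0.35). Positive values were found in 0 of 6 endothelial (median -0.23), 0 of 4 red blood cell (median -0.44), 1 of 7 smooth muscle (median -0.29), 1 of 8 fibroblast (median -0.20) and 1 of 7 macrophage markers (median -0.17), with 0 called by limma (1 endothelial marker lower without adjustment). Their part in the member differences was not tested.

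The Alpk3 call in VO LV was lost when any 1 of 8 libraries was left out: sham LV replicate 1 (limma adjusted p = 0.126) or 2 (0.177), sham RV replicate 1 (0.0537), 2 (0.0825) or 3 (0.0588), and VO LV replicate 1 (0.0718), 2 (0.107) or 3 (0.248). In these fits 0 to 5 genes were DEGs, against 13. Without VO RV replicate 3, Alpk3, Myom2 (0.0149) and Cmya5 (0.0237) passed, and without VO RV replicate 1 Alpk3 and Myom2 (0.0388) passed, while DEGs over all genes rose to 555 and 176. The log2 fold change of Alpk3 stayed between 0.81 and 0.99 over these fits.

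In the RV, all 7 members were lower in VO than in sham, and none passed the test. The log2 fold changes were -0.47 for Cmya5, -0.44 for Alpk3, -0.32 for Ldb3, -0.31 for Myom2, -0.31 for Myom1, -0.25 for Actn2 and -0.19 for Mybpc3. Alpk3 averaged 22.2 ± 4.24 FPKM in VO RV against 30.1 ± 1.48 in sham RV (limma adjusted p = 0.541). No tested gene was a DEG in this comparison (0.0%), and without adjustment (p under 0.05, same fold change, limma) 1 of 7 members (Alpk3) and 4.91% of tested genes passed. With voom on the recovered reads, 0 members and 0 genes were DEGs. Libraries of 4 members (Myom1, Actn2, Ldb3 and Alpk3) did not overlap, beside 12.5% of tested genes. Without VO RV replicate 2, the library with high atrial and fibroblast marker sums, Mybpc3 moved to -0.04 and Ldb3 to -0.18, Cmya5 to -0.71, and the median of the 7 genes from -0.31 to -0.23. Without VO RV replicate 3, Cmya5 moved to -0.12 and Myom2 to -0.09. In VO RV against sham RV the atrial markers (6 of 6 positive, median 0.69), smooth muscle (6 of 7, median 0.54), macrophage (6 of 7, median 0.29) and fibroblast markers (7 of 8, median 0.16) had mostly positive values, with 0 called by limma (0, 1, 3 and 0 higher without adjustment). Of the cardiomyocyte markers 3 of 9 were positive (median -0.08), with 0 called by limma and 2 lower without adjustment. The part of these markers in the member values was not tested.

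Between the overloaded ventricles, all 7 members had higher means in VO LV than in VO RV, and none passed the limma test, while at an unadjusted p under 0.05 and the same fold 2 of 7 (Myom2 and Alpk3) and 7.4% of tested genes passed. The log2 fold change was 0.65 for Myom2 (limma adjusted p = 0.251), 0.58 for Alpk3 (0.239) and between 0.20 and 0.33 for the others. Libraries of 6 members did not overlap, beside 16.1% of tested genes, and 1 tested gene was a DEG (0.00719%). Cmya5 was the member with overlap, and without VO RV replicate 3 its log2 fold change was -0.15. Without VO RV replicate 1, Myom2 (0.86, limma adjusted p = 0.0294) and Alpk3 (0.73, 0.0317) passed, among 48 DEGs over all genes. All 9 cardiomyocyte markers had positive values (median 0.27, 2 higher without adjustment), whereas 6 of 8 fibroblast markers were lower without adjustment (median -0.55) and 0 of 7 macrophage markers had a positive value (median -0.39), with 0 of these markers called by limma. Their part in the member differences was not tested.

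**Figure D2:**
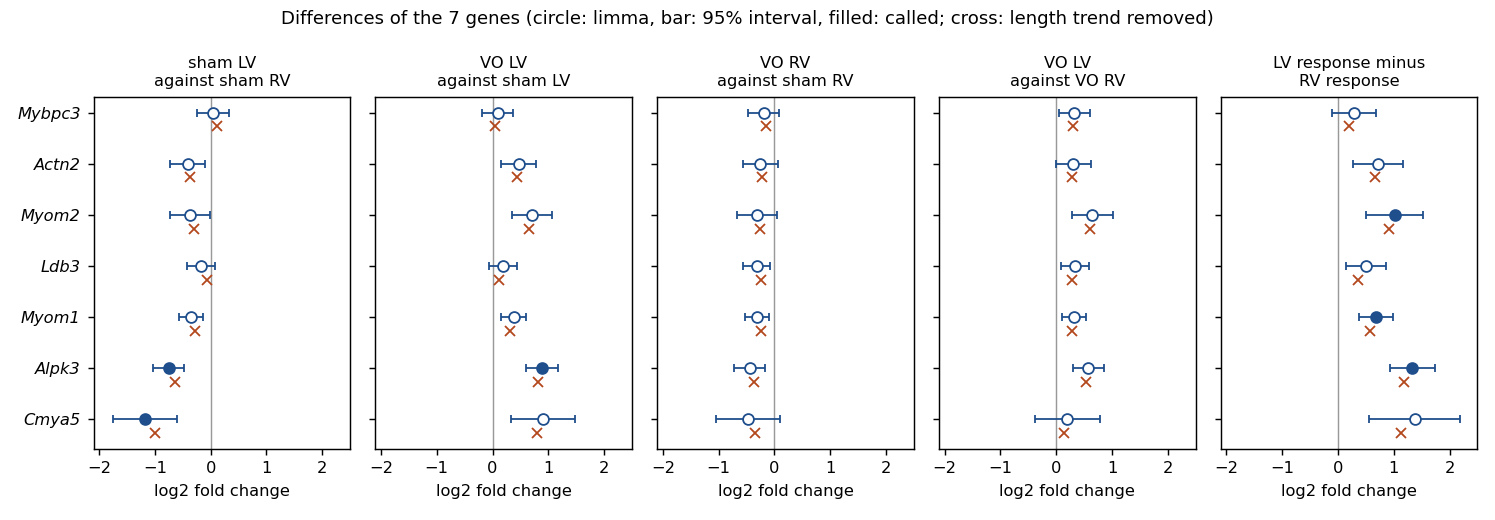
Log2 fold change (x axis) of the 7 genes in the 4 comparisons and in the LV response minus the RV response; circles are limma estimates with 95% intervals, filled where the gene was a DEG, and crosses the estimates after the length trend of each library was removed. Every gene but Mybpc3 is below 0 in sham LV against sham RV, all 7 are above 0 in VO LV against sham LV and all 7 are below 0 in VO RV against sham RV.

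The response to VO differed between the ventricles for Alpk3, Myom2 and Myom1, as tested by the interaction term. The LV response minus the RV response was 1.33 for Alpk3 (SE 0.18, limma adjusted p = 0.0246), 1.02 for Myom2 (SE 0.23, 0.0413) and 0.68 for Myom1 (SE 0.14, 0.0319) on the log2 scale. These 3 of 7 members stand beside 4.19% of tested genes called in either direction and 3.46% called higher, and without adjustment 6 of 7 passed, beside 23.1%. Cmya5 had the largest difference, 1.38, with a wide 95% interval from 0.56 to 2.19 and an adjusted p of 0.0590. Actn2 differed by 0.72 (limma adjusted p = 0.0648), Ldb3 by 0.50 (0.0894) and Mybpc3 by 0.28 (0.344). By its construction this term equals the VO LV to VO RV difference less the sham LV to sham RV difference, so it holds the sham values as well as those after VO. The same term called 3 of 9 cardiomyocyte markers higher (median 0.31) and 1 of 7 macrophage markers lower (median -0.47, 0 of 7 positive), and 0 of 7 smooth muscle markers had a positive value (median -0.63, 2 lower without adjustment). The part of these markers in the member differences was not tested.

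All 3 calls of the difference were lost without sham LV replicate 1 or 2, sham RV replicate 1 or 2, or VO LV replicate 2 or 3, where limma adjusted p for Alpk3 ranged from 0.0555 to 0.0711. The differences themselves lay between 1.26 and 1.35 for Alpk3, 0.98 and 1.02 for Myom2 and 0.61 and 0.72 for Myom1 in these 6 fits. Over all genes, DEGs fell from 583 to 4 without sham RV replicate 2 and to 0 without each of the other 5. Myom1 and Myom2 were also lost without VO RV replicate 3 (0.0716 and 0.0558), and Myom2 without VO LV replicate 1 (0.0736). These fits had 115 and 239 DEGs over all genes. Without VO RV replicate 1 or 2 or sham LV replicate 3, 4 members passed, among 1003, 926 and 770 DEGs.

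Fold changes followed gene length in these libraries, and the members are long: the shortest, Actn2 with 2978 bases, is longer than 81.3% of all genes. In sham LV against sham RV, the median log2 fold change fell from 0.19 for genes under 1000 bases to -0.13 for genes of 8000 bases or more. In VO LV against sham LV it went from -0.15 to 0.07, and in VO RV against sham RV from 0.07 to -0.11. The medians of the 7 genes were -0.37, 0.47 and -0.31 in these comparisons, against -0.07, 0.04 and -0.04 over the 4512 tested genes at least as long as Actn2. Of those long genes, 4.21% were DEGs between the sham ventricles and 0.0887% between VO LV and sham LV. Each member except Mybpc3 in the sham comparison lay on the same side of 0 as the long genes, and Alpk3, Myom1, Myom2, Actn2 and Cmya5 lay outside the quartiles of their length class in all 3 comparisons.

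**Figure D3:**
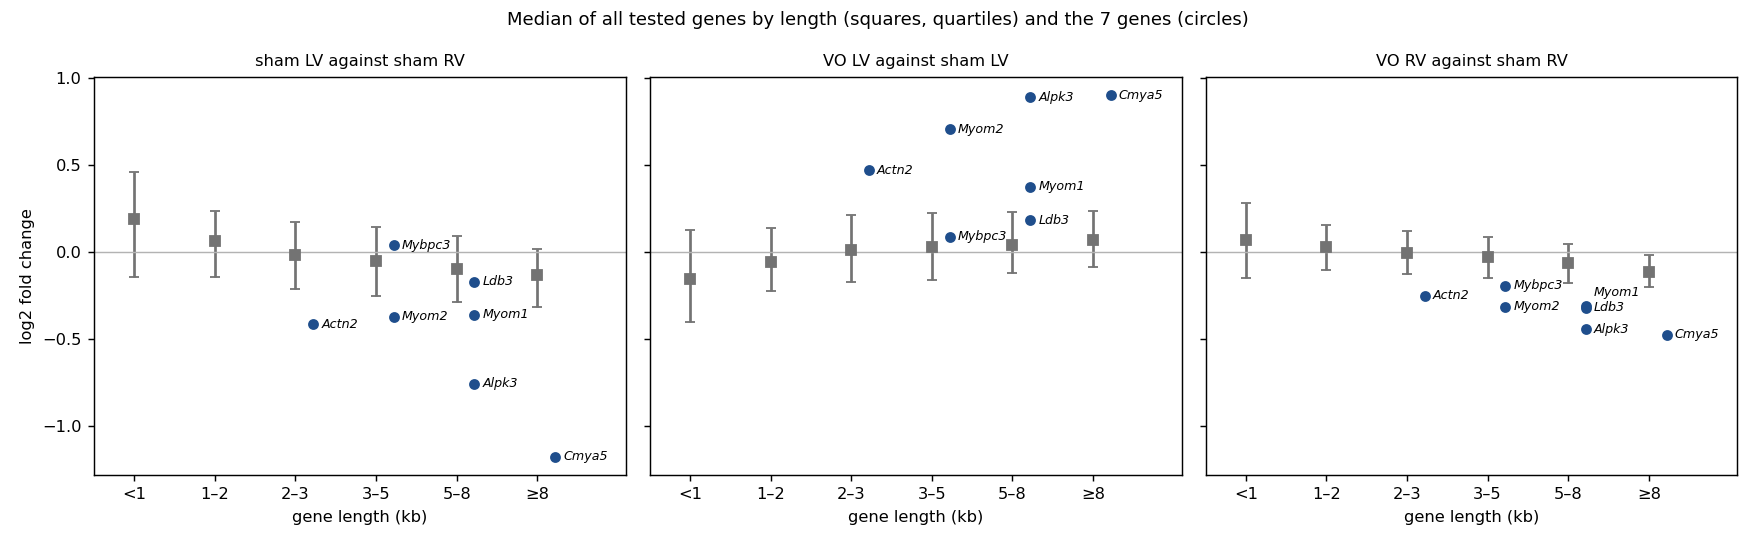
Log2 fold change (y axis) against gene length class in kilobases (x axis) for 3 comparisons; squares are the median of all tested genes with quartiles as bars and circles the 7 genes. The longest class has a median of -0.13, 0.07 and -0.11 from left to right, while Cmya5, which belongs to it, is at -1.17, 0.90 and -0.47.

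The length trend of each library was removed by a lowess curve, and the comparisons were repeated. The medians of the 7 genes became -0.30, 0.43 and -0.25. Alpk3 (limma adjusted p = 0.0380) and Cmya5 (0.0473) were still DEGs with lower sham LV levels, among 469 DEGs over all genes against 536 before. Alpk3 in VO LV fell short of the threshold (log2 0.81, limma adjusted p = 0.0541), where 5 genes in all were called against 13. Of the differences between the responses only that of Alpk3 passed among the members (1.18, 0.0309), with 393 DEGs over all genes against 583. A length index was also computed for each library as the median deviation of genes of at least 5000 bases less that of genes of at most 2000 bases, without sarcomere genes. It was -0.14 to -0.08 in sham LV, -0.03 to 0.20 in sham RV, -0.02 to 0.08 in VO LV and -0.12 to 0.13 in VO RV, so sham LV lay below sham RV and VO LV without overlap. With this index as a covariate 0 members were DEGs in any comparison, and over all genes 2 DEGs were left between the sham ventricles and 0 each in VO LV and in the difference between the responses. The log2 fold change of Cmya5 between the sham ventricles was then -0.71 and that of Alpk3 -0.77, and Alpk3 stood at 0.90 in VO LV against sham LV. The differences between the responses were 1.36 for Alpk3, 0.97 for Myom2 and 0.76 for Myom1. The part of transcript length in the member differences beyond these values was not tested.

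**Figure D4:**
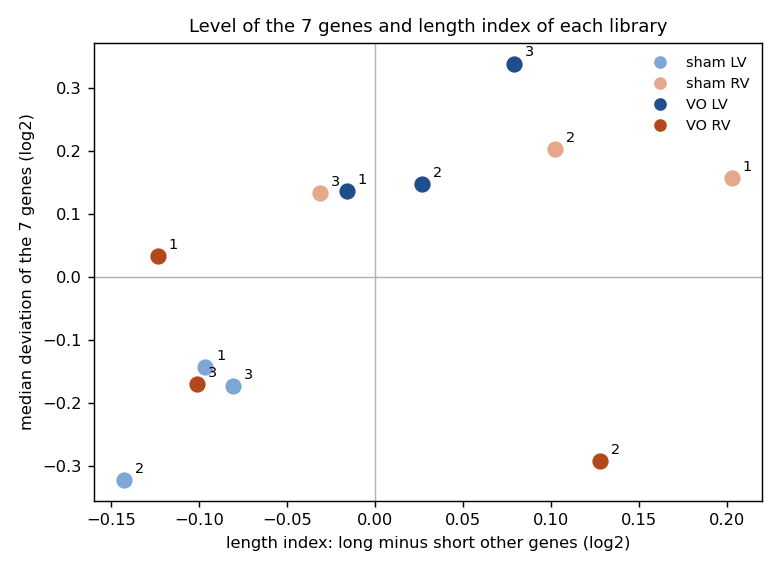
Median log2 deviation of the 7 genes from their mean over all libraries (y axis) against the length index (x axis, log2) for the 12 libraries, coloured by group and numbered by replicate. Sham LV libraries are low on both axes (index -0.14 to -0.08), whereas VO RV replicate 2 combines an index of 0.13 with a median deviation of -0.29.

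Within libraries, the ratio of Myom2 to Myom1 does not depend on library scaling. It was 1.95 ± 0.073 in sham LV, 1.97 ± 0.105 in sham RV and 2.45 ± 0.213 in VO LV (SD, n = 3). VO LV and sham LV did not overlap, with a log2 difference of 0.33 (exact two-sided permutation p = 0.1). In VO RV the ratio was 2.34, 2.19 and 1.47 in replicates 1 to 3, and it overlapped with sham RV and VO LV (exact two-sided permutation p = 1.0 and 0.2).

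Over the 12 libraries, which share groups and length trends, the members varied together to different degrees. Pearson's r of log2 values was 0.90 between Myom1 and Alpk3, 0.88 between Myom1 and Actn2, 0.87 between Myom2 and Alpk3 and 0.81 between Mybpc3 and Ldb3. Mybpc3 followed the others least, with r of 0.20 with Actn2 and -0.23 with Cmya5. After removal of the length trend, these values were 0.86, 0.84, 0.86, 0.86, 0.12 and -0.35. Among 8624 genes with a mean of at least 5 FPKM, those most like the mean standardized profile of the members were Mypn (r = 0.969), which encodes the Z-disc protein myopalladin, Myo18b (0.965), an unconventional myosin of striated muscle, Des (0.961), the intermediate filament desmin, Hcn2 (0.960), a pacemaker channel subunit, and Rbm20 (0.958), a splicing regulator of titin.

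Other sarcomere genes were set beside the members. Of 24 tested genes for other Z-disc proteins, 6 were lower in the sham LV (Synpo2l, Synpo2, Palld, Xirp1, Pdlim5 and Flnc) and 0 higher, beside 2.35% of all tested genes called lower. In VO LV against sham LV 0 were called by limma, and 13 were higher without adjustment beside 15.7% of tested genes in either direction. There Synpo2l, a Z-disc-associated synaptopodin family gene, had a log2 fold change of 1.73. The difference between the responses passed for 9 of the 24, all higher, beside 3.46% of tested genes called higher, among them Mypn (0.81) and Flnc (1.34), which encodes filamin C. Of 9 other M-band genes, 0 were called by limma in any comparison; without adjustment 2 were lower in sham LV (Trim55 and Myom3), 0 passed in VO LV or VO RV against sham, 1 passed between the VO ventricles and 2 in their responses. In VO LV against sham LV, Fhl1 (0.33), Trim55 (0.35) and Ckm (0.36) had unadjusted limma p of 0.0177, 0.0319 and 0.0389 with folds under 1.3. The medians of the 9 genes were 0.00 and 0.08 in the sham and VO LV comparisons, against -0.37 and 0.47 for the 7 members.

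Of 11 thin filament genes, Tpm2, a tropomyosin, was higher in sham LV (0.70), and no other was called by limma in that comparison (3 higher and 1 lower without adjustment). Of 8 thick filament genes, 0 were called between groups by limma. Without adjustment, Myh6 and Myh7 were the 2 lower in sham LV and the 2 higher in VO LV. The response differed between ventricles for 2 of the 8, beside 3.46% of tested genes called higher. These were Myh7 (1.18) and Myh6 (0.89), the cardiac myosin heavy chains. Among 16 genes for sarcomere assembly, kinases and titin splicing, 6 were lower in sham LV, namely Srf, Smyd1, Alpk2, Mylk3, Mef2d and Fhod3, and 0 higher, beside the same 2.35%. Their median was -0.55 between the sham ventricles and 0.62 in VO LV against sham LV. There 0 passed by limma and 10 were higher without adjustment, beside 15.7% of tested genes in either direction. In the difference between the responses 9 of the 16 were called higher, at a median of 0.89, and 0 lower, beside 3.46% of tested genes called higher. Of 29 long genes of other function, which are longer still (median 13617 bases), 0 were called by limma (1 lower in sham LV and 1 higher in VO LV without adjustment), at medians of -0.12 and 0.15 that became 0.03 and 0.03 once the length trend was removed. In the difference between the responses 9 of the 29 were higher without adjustment and 0 called by limma, at a median of 0.28 that became 0.00.

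**Figure D5:**
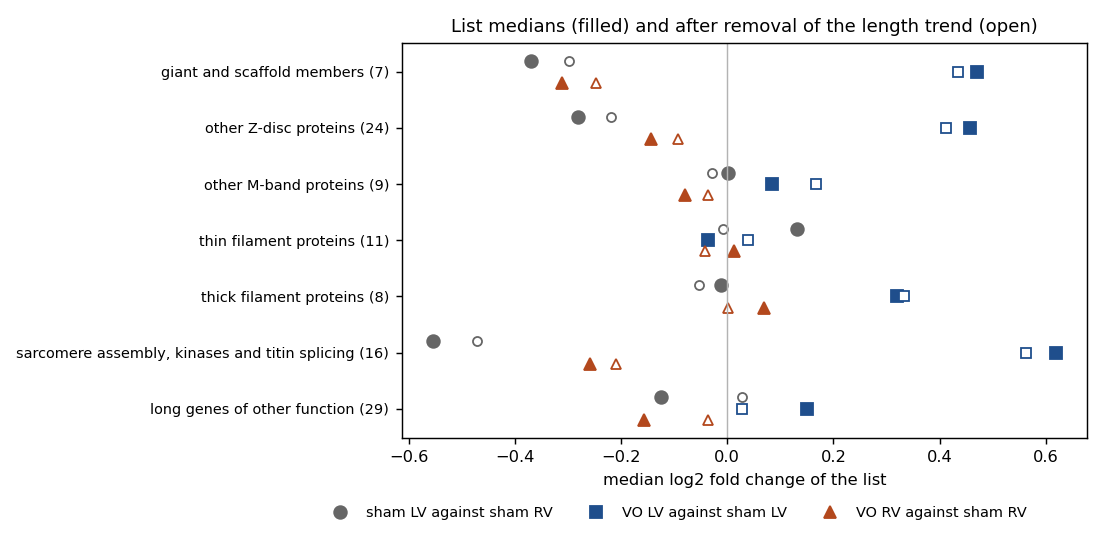
Median log2 fold change (x axis) of each gene list, with the number of tested genes in brackets, in 3 comparisons; filled symbols are limma estimates and open symbols those after the length trend was removed. The 7 members have medians of -0.37, 0.47 and -0.31, and of -0.30, 0.43 and -0.25 when the trend is removed. The long genes of other function have -0.12, 0.15 and -0.16, and then 0.03, 0.03 and -0.04.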

How the data were processed

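Free-wall myocardium of the LV and RV was sequenced at postnatal day 7 in 12 libraries, 3 for each of 4 groups. The authors aligned paired-end reads with HISAT2 2.0.5 and counted them per gene with featureCounts 1.5.0-p3, and they deposited FPKM per library. Genome build, annotation release and strand setting are not given in the sources used here. In every library 100% of values under 200 reads came out as whole reads within 0.02, so reads were recovered (14121713 to 16871371 per library).

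Values entered the fit as log2 of FPKM over a median-ratio size factor, plus 0.5, so fold changes of low genes are understated. The 13910 genes with a mean of at least 0.5 FPKM were fitted by limma 3.58.1 under R 4.3.3, all 4 groups in 1 model with a mean-variance trend, and p values were adjusted by Benjamini-Hochberg over all of them. DEGs had a fold change over 1.3 at an adjusted p under 0.05. The code was also run on simulated reads with set changes in VO LV and no length trend, a check of the code and not of these results. Members and lists were chosen with earlier results of these data known. All members were named; of each other list up to 4 genes with the smallest adjusted p and all DEGs could be named, and the 5 genes most like the members. Alternatives were other scalings, pseudocounts and filters, voom on recovered reads (409 DEGs between the sham ventricles), separate fits, array weights, length corrections, a replicate block and each library left out.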

Additional observations from a re-analysis of the deposited data

Results flagged for a closer look

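The response to VO differed between the LV and the RV for 3 of the 7 genes by the interaction term of the limma model, beside 4.19% of tested genes called in either direction and 3.46% called higher. The LV response minus the RV response was 1.33 for Alpk3, 1.02 for Myom2 and 0.68 for Myom1 on the log2 scale. In Alpk3 the LV value was 0.89 and the RV value -0.44. In Myom2 they were 0.71 and -0.31, and in Myom1 0.38 and -0.31. With the length trend removed, the differences were 1.18, 0.91 and 0.57, with limma adjusted p of 0.0309, 0.0562 and 0.0599. The length index of sham LV lay below that of VO LV without overlap, while sham RV and VO RV overlapped. With the length index as a covariate the differences were 1.36, 0.97 and 0.76, and no member passed (limma adjusted p of 0.168, 0.207 and 0.168). With the atrial marker mean as a covariate 5 members passed, while DEGs over all genes rose from 583 to 1213. Without both RV libraries highest in atrial markers 0 members passed (Alpk3 1.24, limma adjusted p = 0.0589, with 2 DEGs over all genes), and likewise with the replicate number as a block (Alpk3 1.33, 0.0637, with 1 DEG).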

How the results depend on the processing

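The main counts of members called were 2 (sham LV against sham RV), 1 (VO LV against sham LV), 0 (VO RV against sham RV), 0 (VO LV against VO RV) and 3 (difference between the responses). In this order of sham, VO LV and difference, they were 0, 0 and 1 with all genes above 0, 0, 0 and 0 with the length index as a covariate, and 0, 0 and 0 without both RV libraries highest in atrial markers. They were 2, 0 and 1 with the length trend removed, 2, 3 and 5 with array weights and 4, 1 and 5 with quantile normalization, under which the median difference between the responses was 0.91 in place of 0.72. Separate fits of 6 libraries gave 2 in VO LV, among 119 DEGs over all genes, and cannot give the difference. The atrial marker mean as a covariate gave 5 for the difference. The fits without both RV libraries, with the atrial covariate and with the length trend removed under the block were chosen after the data were seen. Over all genes, DEGs in the same order were 536, 13 and 583 in the main fit, 8, 5 and 21 with all genes above 0, 9, 2 and 2 without both RV libraries, 469, 5 and 393 with the length trend removed, 1321, 704 and 1045 with array weights and 636, 14 and 629 with quantile normalization. The causes were not tested. Without a size factor, with a pseudocount of 1 or 0.1 or a mean of at least 1 FPKM, and with voom apart from 4 for the difference, the counts equalled the main ones. The size factors ran from 0.996 to 1.002, so leaving them out could change little.

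With the replicate number as a block the counts were 0, 0 and 0, and the same with the length trend removed as well. Deviations from the group means correlated weakly between same-numbered libraries (r from -0.22 to 0.12), and whether the numbers mark pairs was not given in the labels. Over all genes the block gave 3 DEGs between the sham ventricles, 3 in VO LV and 1 in the difference, and voom gave 197 in VO LV. Over the alternatives that kept all 12 libraries in 1 model, DEGs over all genes ran from 2 (length index) to 1321 (array weights) between the sham ventricles, from 0 (length index) to 704 (array weights) in VO LV and from 0 (length index) to 1213 (atrial covariate) in the difference.

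With each library left out, the counts ranged from 0 to 2 (sham), 0 to 3 (VO LV), 0 to 0 (VO RV), 0 to 2 (VO LV against VO RV) and 0 to 4 (difference). The medians of the 7 genes ranged from -0.42 to -0.32, 0.34 to 0.56, -0.42 to -0.23, 0.27 to 0.43 and 0.64 to 0.80. The log2 ratio of Myom2 to Myom1 ranged from -0.053 to 0.024 between the sham ventricles and from -0.13 to 0.20 in VO RV against sham RV, changing sign without sham LV replicate 1 (0.019) or sham RV replicate 1 (0.024 and 0.032) and without VO RV replicate 3 (0.20). Mybpc3 between the sham ventricles changed sign with quantile normalization (-0.17), the length index (-0.21), the atrial covariate (-0.027) and without sham LV replicate 2 (-0.025, with a range of -0.025 to 0.10 over the libraries), and Cmya5 between VO LV and VO RV without VO RV replicate 3 (-0.15, range -0.15 to 0.44). Of the values of single members under alternatives, 840 kept direction and side of the threshold, 73 lost the call, 20 gained it and 5 changed sign. Depth was not varied. The ratio of Ttn to Mybpc3 was not run.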

Other observations

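Rows near the names of the rule that had none were read after their values were seen. LOC102554591, described in the table as nebulette-like (chromosome 17, 84140489 to 84488601), measured 7.71 ± 1.09 FPKM in sham LV and 25.2 ± 8.13 in VO LV (SD, n = 3). In the RV it measured 24.1 ± 10.3 FPKM after sham surgery and 13.7 ± 5.76 after VO, and all 3 sham LV libraries lay below all libraries of sham RV and VO LV. AABR07052585.2, an uncharacterized gene on chromosome 3 from 63566184 to 63568464, measured between 571 and 899 FPKM and overlapped in all groups. AABR07052585.1, another uncharacterized gene of that chromosome (63820757 to 63836017), measured 6.71 to 8.29 FPKM in sham RV, above the 4.48 to 5.54 of VO RV and the 4.23 to 6.39 of VO LV, and 3.82 to 6.97 in sham LV. Tcap, the gene of telethonin, a Z-disc protein that binds titin, was listed at 0 in all 12 libraries. Whether its RNA was absent or its reads were not counted cannot be told from these values.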
